A study of Mus musculus with 50 samples.

Results

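In wild-type mouse embryonic stem (ES) cells that carry chromosomes of the strains 129 and CAST, the RNA of each autosomal gene was compared between its 129 allele and its CAST allele. The genes were those of chromosomes 5, 7, 9 and 13, where most genes have reads of both strains. The tables list 5845 genes there, of 24391 genes in all. Of these, 2457 had at least 20 reads that could be given to an allele (allelic reads) in each of the 2 wild-type libraries. In 2097 of them both alleles were read in the neighbourhood, and these 2097 genes carry the comparison; the other 360 lie in stretches where almost only 129 reads were found.

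Poly(A) RNA was sequenced from wild-type ES cells (2 libraries), from ES cells heterozygous (RepB+/-, 2 libraries) or homozygous (RepB-/-, 2 libraries) for a deletion of Repeat B of the Xist RNA, and from wild-type mouse embryonic fibroblasts (MEF, 1 library). All derive from a cross between the strains CAST/Ei and 129/Sv/Jae, and the labels name neither the direction of the cross nor the parent that gave each strain's chromosomes. The ES cells were kept for 3 days on fibroblast feeders, differentiated for 4 days in suspension as embryoid bodies once the feeders had been removed, and then for 10 days on plates. The labels do not say that replicates are separate cultures, so the spread behind each p-value may be technical.

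A gene in a hybrid cell meets the same transcription factors on both chromosomes, so unequal RNA from its alleles is read as a difference that acts in cis, such as a sequence variant in a promoter, enhancer or transcript. Genomic imprinting is the other classical source of unequal alleles: DNA methylation laid down in the germ line silences the allele from one parent. A strain effect follows the strain in every cross, and imprinting follows the parent, so a single cross direction cannot separate them.

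The wild-type ES libraries held 19676395 and 12505962 counts, of which 26.98% and 26.94% were allelic, and 1259386 and 791929 allelic reads lay on the 4 chromosomes. The cultures were mixed. Of the markers of cardiac muscle, endoderm, endothelium and pluripotency, all 16 were above 1 CPM (counts scaled to the library's total) in both libraries, with sums of 409 and 442 CPM for the cardiac markers Myh6, Myh7, Actc1, Tnnt2 and Nkx2-5. Fibroblast markers, which the feeders also make, summed to 20220 and 24470 CPM. Of the blood markers, Spi1 (10.98 and 7.60 CPM) and Ptprc (5.74 and 6.88 CPM) were above 1 CPM and Hbb-bh1 lay under it in both libraries. Of the neural markers, Nes (70.95 and 71.49 CPM) and Tubb3 (32.32 and 27.19 CPM) were above 1 CPM and Sox1 lay under it. The labels give no strain for the feeders, and their part in the allele shares was not tested.

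Both alleles were read along all of chromosome 13 and along the middle of the other 3 chromosomes. The both-allele stretch held 559 measured genes on chromosome 5 (mm9 positions 36235968 to 149317763, Afap1 to Ubl3), 658 on chromosome 7 (13617355 to 138703968, Chmp2a to Bub3), 522 on chromosome 9 (19426535 to 119804075, Zfp317 to Wdr48) and 358 on chromosome 13. A gene was placed in it when the median 129 share of its 15 neighbouring measured genes lay between 20% and 80%. On both sides of these stretches the chromosomes read as 129: 148 and 13 genes of chromosome 5, 54 and 84 of chromosome 7 and 30 and 31 of chromosome 9. In the wild-type MEF library the same end stretches had median 129 shares between 45.2% and 50.0%, so both alleles were read there in fibroblasts.

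**Figure D1:**
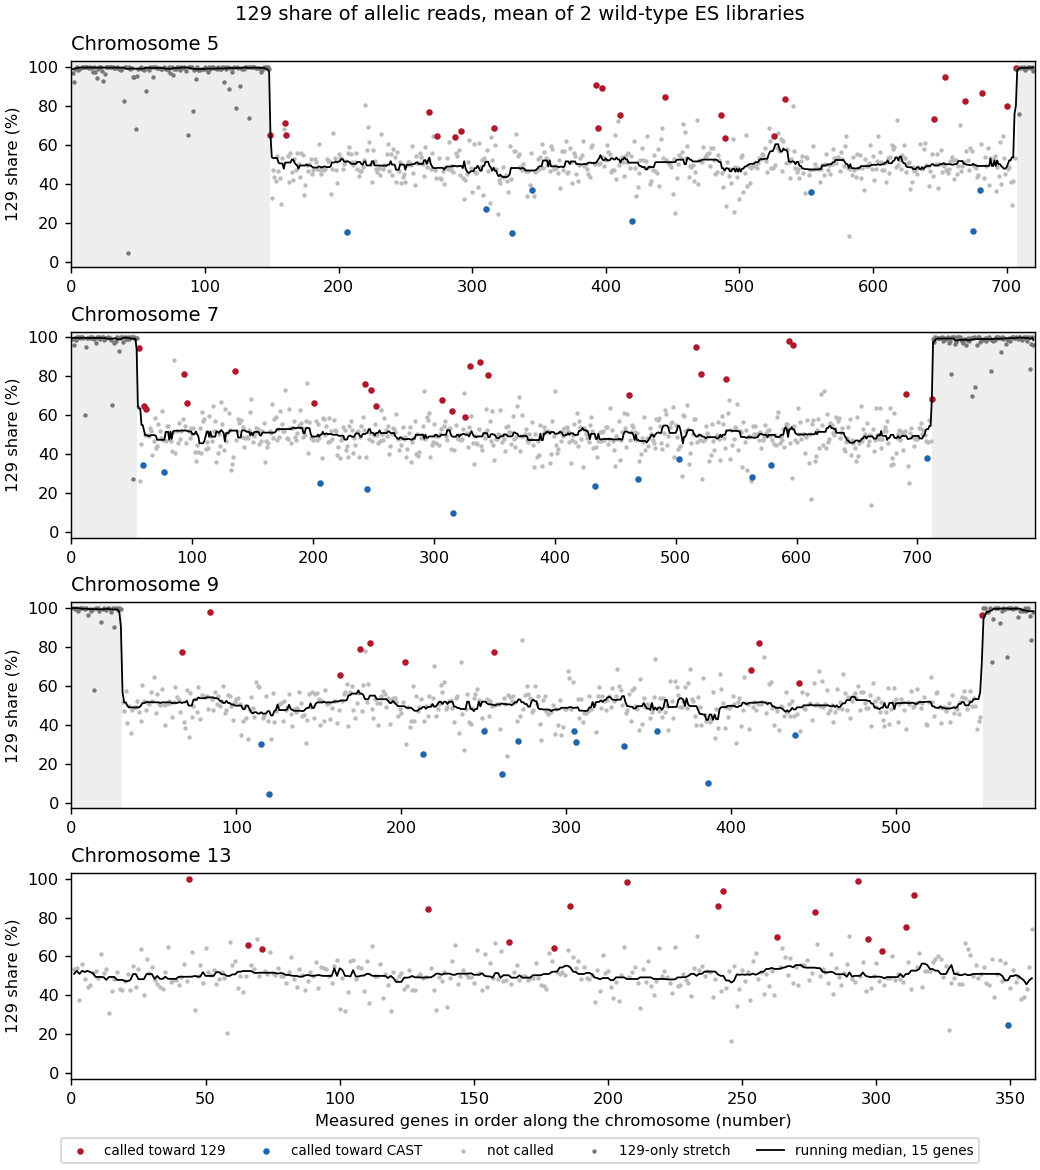
Share of 129 reads among allelic reads (%, mean of the 2 wild-type ES libraries) for each measured gene, in order along chromosomes 5, 7, 9 and 13; grey shading marks the 129-only stretches and the line is the running median over 15 genes. Between the stretches the line stays mostly near 50% and rises near borders, up to 79.9% at Ubl3. The 75 genes called toward 129 and 32 called toward CAST lie there, with Ubl3, Wdr48 and Ube2m where the line rises.

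The 129-only stretches show how often reads were given to the strain that the neighbouring genes lack. Of their 360 genes, 352 (97.8%) were called toward 129 by the test described next and 2 (0.556%) toward CAST. They had median 129 shares of 99.6% and 99.8% in replicates 1 and 2, and 1.90% and 1.91% of their summed allelic reads were CAST reads. However, 21 of the 360 genes (5.83%) lay under 90% in both libraries. Gm15421, a predicted gene, had 0 and 3 129 reads against 44 and 31 CAST reads there. Mtmr2, a lipid phosphatase, stood at 56.2% and 59.8%. A share far from that of the neighbours was thus also seen where nearly all neighbours gave 129 reads alone, and the part of such reads in the both-allele genes was not tested.

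In the both-allele stretches most genes had 129 shares near 50%, though equality of the alleles was not tested. The median 129 share over the 2097 genes was 50.4% and 50.1% in the 2 libraries (50.3% ± 0.154, SD, n = 2). By chromosome it was 50.4% and 50.1% on chromosome 5, 50.0% and 50.0% on chromosome 7, 50.1% and 50.4% on chromosome 9, and 50.8% and 50.5% on chromosome 13. Of the 2097 genes, 1659 (79.1%) had a mean share between 40% and 60%. In replicate 1 the middle 80% of genes ran from 40.4% to 61.4%, and in the shallower replicate 2 from 38.3% to 63.4%.

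An allelic bias was called for 107 of the 2097 genes (5.1%): 75 had more 129 RNA (3.58%) and 32 more CAST RNA (1.53%). The test was edgeR's quasi-likelihood test of the ratio of 129 to CAST reads within each library, with Holm adjustment over all 10382 genes tested at 0.05. Across those 10382 genes 70.7% were called, since most other autosomes of these cells read as 129 (86.6% called outside chromosomes 5, 7, 9, 13 and X). All 107 genes lay on the same side of 50% in both wild-type libraries, as did 1466 of all 2097. The calls came from these same 2 libraries, so their shared side is no separate replication. The 129-biased genes had a median fold of 3.20 (56 over 2-fold, 30 over 4-fold and 14 over 8-fold), and the CAST-biased genes a median fold of 2.49 (21, 8 and 3 in the same classes). The smallest called folds were 1.45 toward 129 and 1.63 toward CAST.

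The split differed in number between chromosomes, but that difference was not tested. Chromosome 5 had 23 genes called toward 129 and 8 toward CAST, chromosome 7 had 24 and 11, chromosome 9 had 11 and 12, and chromosome 13 had 17 and 1. The single CAST call on chromosome 13 was Itga1, a collagen-binding integrin subunit. Called genes were scattered: 5 of 2093 neighbouring pairs were both called, 3 of them the same way, and no run of 3 occurred. Calls were rarer among genes with fewer allelic reads. Of genes with 40 to under 200 allelic reads over both libraries 1.97% were called, none under 4.04-fold, against 7.55% of genes with 1000 or more reads, where folds down to 1.45 passed. Of the 1990 genes not called, 359 had an unadjusted p under 0.05.

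The number of calls depended on the wild-type libraries and on the estimate of spread. Without wild-type replicate 1 the calls were 36 toward 129 and 11 toward CAST, and without replicate 2 they were 40 and 16. DESeq2 called 33 and 12, all 45 among the 107.

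**Figure D2:**
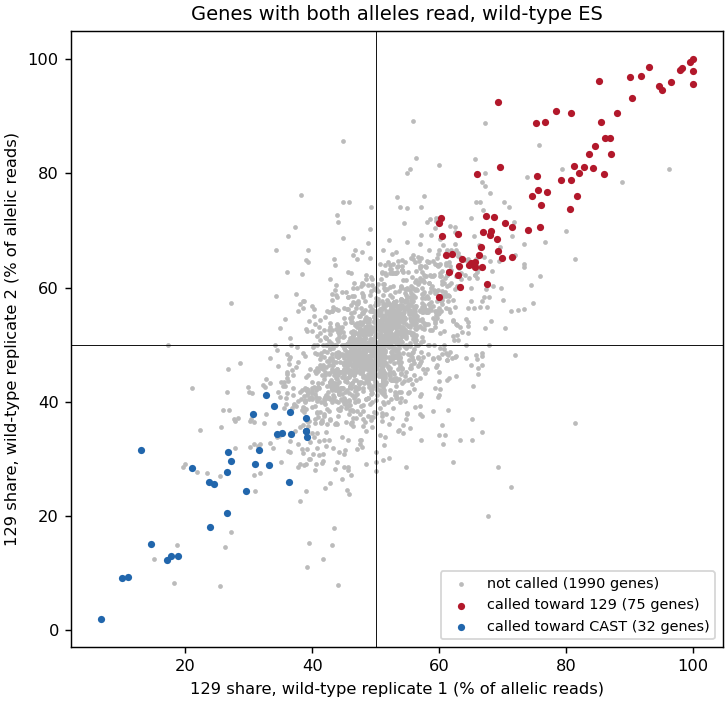
Share of 129 reads (% of allelic reads) in wild-type ES replicate 1 (horizontal) and replicate 2 (vertical) for the 2097 both-allele genes. The 75 genes called toward 129 lie in the upper right and the 32 called toward CAST in the lower left, while most of the 1990 genes not called lie around 50% on both axes.

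Imprinted genes were looked at first, since a parental mark would turn the allele share toward 0% or 100%. Genes reported as imprinted, 13 as paternally and 17 as maternally expressed, are listed on the 4 chromosomes, and 7 of them were measured in the both-allele stretches, all on chromosome 7. None was called, none had an unadjusted p under 0.05, and DESeq2 and Benjamini-Hochberg adjustment called none either; over the 2097 genes 5.1% were called and 22.2% had an unadjusted p under 0.05, so with 7 genes a count of 0 does not set this list apart. Ndn, Mkrn3 and Peg12 are neighbours in the Prader-Willi region and are reported to be transcribed from the paternal allele. Their promoters are shown with CG dinucleotides, the sites of DNA methylation, in capitals (RefSeq, GRCm38.p6, chromosome 7, 250 bases before to 50 after the start). Ndn spans 62348027 to 62348326 on the plus strand. Mkrn3 spans 62420104 to 62420403 and Peg12 62464461 to 62464760, both on the minus strand.
Ndn: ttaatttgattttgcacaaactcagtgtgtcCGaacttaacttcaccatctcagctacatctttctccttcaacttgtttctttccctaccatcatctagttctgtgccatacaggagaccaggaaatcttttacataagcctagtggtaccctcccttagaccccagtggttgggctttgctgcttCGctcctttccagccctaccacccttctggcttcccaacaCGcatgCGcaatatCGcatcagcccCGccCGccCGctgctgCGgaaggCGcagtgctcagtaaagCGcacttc
Mkrn3: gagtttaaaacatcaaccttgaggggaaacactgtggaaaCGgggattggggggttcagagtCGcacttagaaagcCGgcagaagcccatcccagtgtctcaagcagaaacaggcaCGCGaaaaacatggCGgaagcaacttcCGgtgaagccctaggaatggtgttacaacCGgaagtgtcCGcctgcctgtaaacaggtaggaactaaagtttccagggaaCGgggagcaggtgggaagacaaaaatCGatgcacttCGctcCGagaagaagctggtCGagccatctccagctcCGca
Peg12: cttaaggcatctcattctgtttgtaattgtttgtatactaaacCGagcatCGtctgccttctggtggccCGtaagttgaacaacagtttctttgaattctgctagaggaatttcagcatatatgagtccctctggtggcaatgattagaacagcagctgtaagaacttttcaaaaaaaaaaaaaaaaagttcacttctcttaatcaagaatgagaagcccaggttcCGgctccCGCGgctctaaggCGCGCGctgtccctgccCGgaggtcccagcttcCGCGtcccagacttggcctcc

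The Ndn promoter holds 11 CG dinucleotides in 300 bases, that of Mkrn3 15 and that of Peg12 12. CG reads the same on both strands. Of the 32851 promoters of this length in the table, 94.6% hold at least 1 CG, the median is 7, and 41.4%, 34.6% and 39.6% hold as many as these 3 genes in the same order. All 7 measured imprinted genes have a promoter in the table. The counts describe the sequence, and methylation was not measured in these samples.

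Ndn encodes necdin, a MAGE family protein of postmitotic neurons. It had 204 and 123 129 reads against 227 and 138 CAST reads, or shares of 47.3% and 47.1%. Its log2 ratio was -0.16 (SE 0.19, edgeR adjusted p = 1), an interval of 40.8% to 53.8% for the 129 share (95%, from the SE), so RNA from a single allele in all cells is outside it. In the RepB libraries its share lay between 42.9% and 47.0%. Mkrn3, a ubiquitin ligase gene without introns, stood at 45.9% and 46.9% from 37 and 32 allelic reads, with an interval from 29.1% to 64.6%. Peg12 stood at 57.0% and 44.1%, with an interval from 38.2% to 66.1%. RNA was taken from whole cultures, so cells that use both alleles and a mix of cells that each use the other allele cannot be told apart, nor can fewer cells using an allele and less RNA from it per cell. In wild-type MEF, Ndn had 23 129 reads and 91 CAST reads, or 20.2% (exact interval 13.2% to 28.7%), and Peg12 had 24 and 51, or 32.0% (21.7% to 43.8%).

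The other 4 imprinted genes are reported to be imprinted in some tissues or transcripts only. Atp10a, a phospholipid flippase, stood at 50.7% and 50.5%, and Inpp5f, a phosphoinositide phosphatase, at 46.2% and 50.4%. Ube3a, the ubiquitin ligase of Angelman syndrome that is imprinted in neurons, had 61.5% and 44.2%, and Ampd3, an AMP deaminase, 57.6% and 52.8%. Snrpn and Snurf overlap each other and were listed with at most 1 read in these libraries, so this pair could not be measured.

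The large imprinted cluster at the end of chromosome 7 and the Peg3 domain at its start fall in the 129-only stretches. H19, a non-coding RNA reported to come from the maternal allele, had 70510 and 43270 129 reads against 369 and 111 CAST reads. Igf2, its neighbour reported to be paternal, had 1648 and 1395 against 20 and 29. Both members of this reciprocal pair thus read as 129, as did all other measured genes of both lists there, and the share of these 13 genes says nothing about imprinting. Peg3, a zinc finger gene reported to be paternal, had a 129 share of 99.8% and 99.9% in wild-type ES cells and 0.271% in wild-type MEF (1 read from 129 and 368 from CAST). Kcnq1ot1, also reported as paternal, had 1 and 31 in MEF. Of genes reported as maternal, Zim1 had 64 and 0 there and Cdkn1c 25 and 0. H19, however, had 375 and 505 (42.6%), and Tssc4, Osbpl5, Cd81, Nap1l4 and Dhcr7 lay between 33.5% and 58.3%. The parent behind these shares was not tested.

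The genes furthest toward 129 gave almost only 129 reads. Rps13, a protein of the small ribosomal subunit, had 231 and 122 129 reads against 4 and 2 CAST reads (98.3% and 98.4%, log2 ratio 5.83, SE 0.44, adjusted p = 5.93e-36). Uqcrb, a subunit of complex III of the respiratory chain, had 192 and 107 against 4 and 2 (98.0% and 98.2%, log2 5.59, SE 0.46). Rps15a, also of the small subunit, had 297 and 227 against 22 and 3 (93.1% and 98.7%); its log2 ratio of 4.42 was 6.204 without wild-type replicate 1 and 3.75 without replicate 2. Ccnb1, the cyclin that drives entry into mitosis, had 112 and 83 against 12 and 6 (90.3% and 93.3%). In the 4 RepB libraries these genes kept to the same end, between 97.2% and 100% for Rps13, 96.9% and 100% for Uqcrb, 94.0% and 97.5% for Rps15a, and 83.6% and 89.9% for Ccnb1. Wild-type MEF gave 97.2%, 100%, 97.0% and 97.1% for the 4 genes in that order.

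Actb, which encodes the beta-actin of the cytoskeleton and is often used as a constant reference in expression work, had 710 and 449 129 reads against 37 and 26 CAST reads. Its 129 shares were 95.05% and 94.5% (log2 ratio 4.19, SE 0.21, edgeR adjusted p = 1.34e-85), between 92.9% and 94.8% in the RepB libraries and 94.97% in MEF. Of all reads over Actb, 1.85% were allelic, against a median of 33.1% for the 2097 genes, so its share rests on a small part of its RNA. Hist1h2ac, a replication-dependent histone H2A gene read at 8.89 and 7.20 CPM, had 49 and 26 129 reads and no CAST read in either library. Against a floor of 3 CAST reads over both libraries it was at least 25-fold higher from 129 in the poly(A) RNA that was sequenced. Its call was lost with DESeq2 (adjusted p = 0.278) and without wild-type replicate 1 (edgeR adjusted p = 0.0823).

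Ftl1, the ferritin light chain that stores iron, was the most precisely measured 129-biased gene, with 7914 and 4560 129 reads against 1349 and 560 CAST reads (85.4% and 89.1%, log2 2.78, SE 0.11, adjusted p = 1.47e-144). MEF gave 89.6% for it. Ferritin and ribosomal protein genes have many processed copies in the genome, as do Actb and Hspa8, so counts over them are uncertain. Rpl37rt, whose name marks it as a retrotransposed copy of Rpl37, stood at 88.1% and 90.6%. The short interval listed as Mir682, with 21.6% of its reads allelic, had 666 and 359 129 reads against 158 and 37 CAST reads (80.8% and 90.7%); reads of poly(A) libraries over it do not measure the mature microRNA. Its log2 ratio of 2.52 was 3.28 without wild-type replicate 1, and the call was lost with DESeq2 (adjusted p = 1) and without library as a block (edgeR adjusted p = 0.0907).

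A group of 3 further genes at the top of the ranking lie at the border of a 129-only stretch: Ubl3 (99.5% and 99.5%), a membrane-anchored ubiquitin-like protein, at the end of the both-allele stretch of chromosome 5, Wdr48 (96.6% and 96.0%), a cofactor of ubiquitin-specific proteases, at the end of that of chromosome 9, and Ube2m (91.8% and 97.1%), the conjugating enzyme of the ubiquitin-like protein NEDD8, at the start of that of chromosome 7. When each border was set at the split with the least deviation from 100% on one side and 50% on the other, instead of by the running median, all 3 fell on the 129-only side and the calls toward 129 were 72. In MEF, where both alleles are read there, they stood at 46.2%, 47.3% and 48.0%. The log2 ratio of Ube2m was 3.95, and 5.07 without wild-type replicate 1. These 3 genes cannot be told apart from the 129-only stretch beside them.

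The gene furthest toward CAST was Hspa8, the constitutive Hsc70 chaperone. It had 120 and 21 129 reads against 1673 and 1006 CAST reads, or 6.69% and 2.04% (log2 ratio -4.39, SE 0.17, edgeR adjusted p = 8.09e-140), and 7.21% in MEF. The log2 ratio was -5.58 without wild-type replicate 1 and -3.80 without replicate 2, and both were called. Gm15545, a predicted gene, had 14 and 6 against 126 and 59 (10.0% and 9.23%, log2 -3.20, SE 0.42). Pebp1, which encodes an inhibitor of the Raf kinase pathway, had 201 and 99 against 640 and 446 (23.9% and 18.2%, log2 -1.89, SE 0.17), and 16.8% in MEF. Picalm, a clathrin adaptor of endocytosis, had 407 and 254 against 1127 and 662 (26.5% and 27.7%, log2 -1.43, SE 0.14), and 28.3% in MEF.

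Itga1 had 69 and 60 129 reads against 259 and 151 CAST reads (21.0% and 28.4%, log2 -1.64, SE 0.22), and between 22.2% and 26.8% in the RepB libraries. Without wild-type replicate 1 its log2 ratio was -1.33 and the edgeR adjusted p 0.158. Bri3 stood at 18.8% and 13.01% and Hddc3, a nucleotide phosphohydrolase, at 26.5% and 20.5%. With DESeq2 Bri3 had an adjusted p of 0.0871 and Hddc3 of 0.995, and the Hddc3 call was also lost without wild-type replicate 1 (log2 -1.95, edgeR adjusted p = 0.110) and without replicate 2 (-1.47, adjusted p = 0.411).

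Ribosomal protein genes stood out among the lists by their number of calls. Their many processed copies make the read counts uncertain, and the part of these copies in the biases was not tested. Of the 16 measured in the both-allele stretches, 8 were called toward 129 and 6 toward CAST, or 87.5% against 5.1% of the 2097 genes, and the median absolute log2 ratio was 1.69 against 0.25 over all 2097. The biases ran both ways, with a median 129 share of 60.4%. Toward 129, next to Rps13 and Rps15a, stood Rps19 (86.0% and 79.8%), Rplp1 (75.4% and 79.6%) and Rplp0 (76.0% and 74.5%), the last 2 being proteins of the ribosomal stalk. Toward CAST stood Rpl5 (17.1% and 12.3%), Rpl9 (17.6% and 13%), Rpl27a (27.2% and 29.7%), Rpl4 (31.6% and 31.7%), Rps3 (36.4% and 38.2%) and Rps27l (32.7% and 41.2%), a paralog of Rps27. Rpl21 (62.8% and 60.4%) and Rpl13a (50.0% and 51.5%) were not called.

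Rpl4 and Rps3, at 1158 and 939 CPM in replicate 1, were read deeply enough to show how close the libraries lie. Rpl4 had 2779 and 1906 129 reads against 6012 and 4115 CAST reads, with shares between 30.2% and 33.0% in the RepB libraries and 31.9% in MEF. Rps3 had 3661 and 2443 against 6393 and 3945, with 36.2% to 36.8% and 36.6%. Rps13, Rpl9 and Rpl5 had 12.4, 8.84 and 22.3 CPM in replicate 1, while Rplp0 and Rplp1, also biased over 3-fold, had 462 and 314 CPM. Rpl6 and Rpl18, called toward 129, had 3.56% and 6.34% of their reads given to an allele and differed between the libraries, with 78.3% and 90.9% for Rpl6 and 69.3% and 92.6% for Rpl18. Without wild-type replicate 1 their log2 ratios of 2.43 and 1.87 were 3.30 and 3.63, and without replicate 2 they were 1.84 and 1.17, not called. With DESeq2, 6 ribosomal protein genes were called toward 129 and 4 toward CAST, and without wild-type replicate 2 the calls were 5 and 5. In the 129-only stretches, Rpl14, Rpl28 and Rps9 had shares of at least 94.4%.

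The respiratory chain and ATP synthase list gave 4 of 20 genes called toward 129 and none toward CAST (20.0% against 5.1%). Next to Uqcrb these were Sdhd, a membrane anchor of succinate dehydrogenase (79.1% and 78.8%, log2 1.91, SE 0.22), Cox18, which inserts a cytochrome oxidase subunit into the membrane (77.0% and 76.7%), and the cytochrome oxidase subunit Cox6b1 (65.9% and 79.8%). With DESeq2, Uqcrb and Sdhd alone were called, and without wild-type replicate 1 the list had 2 calls. Cox6b1 was called neither without replicate 1 (log2 1.98 against 1.38 with both) nor without replicate 2 (0.95). The other 16 members lay between mean shares of 39.4% and 67.2%.

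Zinc finger genes, a large family of DNA-binding proteins, gave no call among 89 measured genes. Of these, 14 had an unadjusted p under 0.05, DESeq2 called none and Benjamini-Hochberg adjustment 13. Over all 2097 genes 5.1% were called, 22.2% had such a p, DESeq2 called 2.15% and Benjamini-Hochberg adjustment 20.6%. Of the 89 genes 71 lay between 40% and 60%, a share close to the 79.1% of all genes. A minimum of 100 allelic reads in each wild-type library left 33 of the 89, against 1293 of all 2097 genes. The part of this lower depth in the count of 0 was not tested. None of 13 chromatin regulators was called either (1 with an unadjusted p under 0.05, none with DESeq2, 1 with Benjamini-Hochberg), and all 13 lay between 43.5% and 54.4%. The 7 enzymes of drug and redox metabolism also gave no call and no unadjusted p under 0.05, nor a call with DESeq2. At 5.1% called over all genes, lists of 13 and 7 genes hold too few members for a count of 0 to set them apart.

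Each of 6 further lists had a single call, all 6 toward 129. With 3 to 10 members a list and 3.58% of all genes called toward 129, which is 70.1% of all calls, these counts describe single genes and set no list apart. Among 3 histone cluster genes it was Hist1h2ac. Among 10 muscle genes it was Hspb6, a small heat shock protein of muscle (75.5% and 77.2%), and among 8 serpin, kallikrein and cathepsin genes it was Serpinb6a, a protease inhibitor (66.2% and 65.8%). Map1b, a microtubule-associated protein of growing axons, was called among 8 neural genes (62.9% and 62.3%). Apoa1, the main protein of high-density lipoprotein, was called among 7 endoderm genes (59.9% and 71.3%) and Oasl2, an interferon-induced gene, among 9 immune genes (68.1% and 69.2%). The edgeR call of Serpinb6a was lost without wild-type replicate 1 (log2 0.94, adjusted p = 0.117) and that of Apoa1 without replicate 2 (0.58, adjusted p = 1). Those of Map1b (0.72 and 0.76) and Oasl2 (1.17 and 1.09) were lost without replicate 1 and without replicate 2. Of 57 predicted and Rik genes 3 were called (5.26%, close to the 5.1% of all), among them 1110032A03Rik at 75.3% and 88.9%. Its log2 ratio of 2.06 was 2.98 without wild-type replicate 1 and 1.60 without replicate 2, and it was called in neither case.

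**Figure D3:**
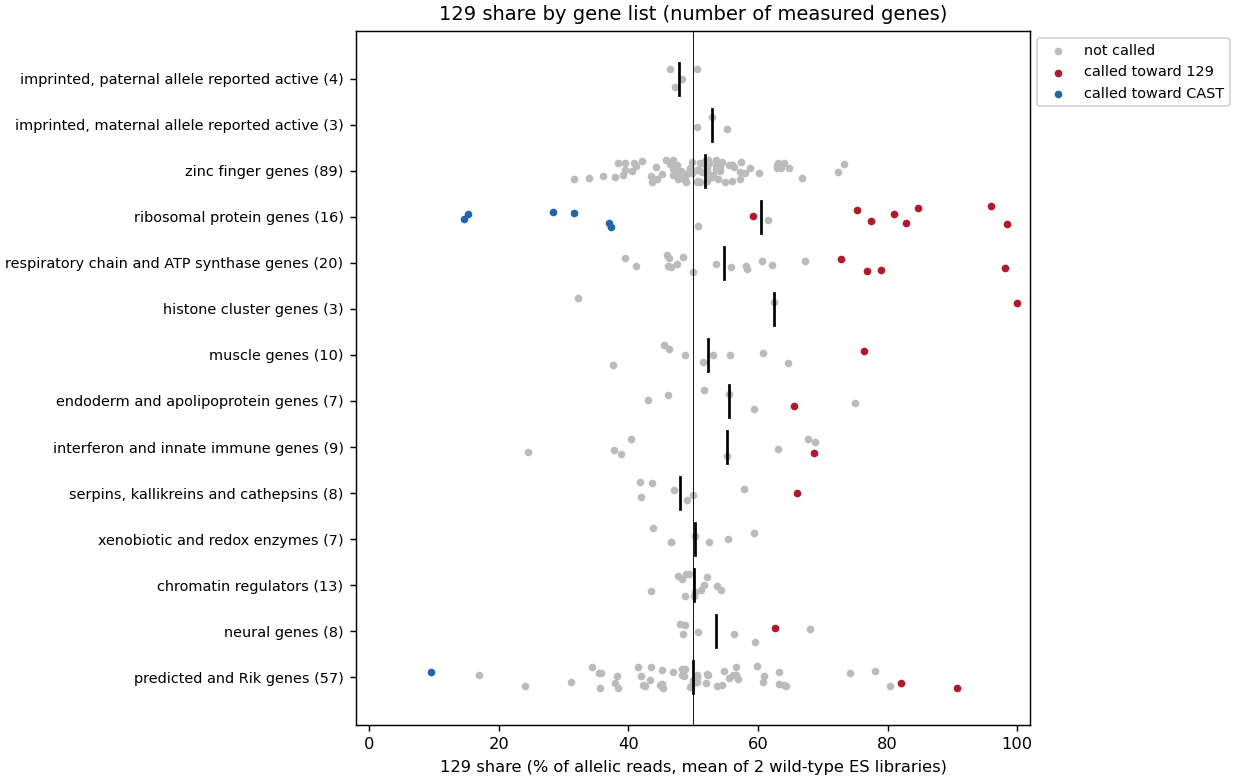
Mean 129 share (% of allelic reads, 2 wild-type ES libraries) of each measured both-allele gene by gene list, with the number of genes in brackets and a bar at the list's median. Ribosomal protein genes spread from 14.7% to 98.3% with 14 of 16 called, while the 89 zinc finger genes lie between 31.7% and 73.2% with none called. The lists differ in depth: a minimum of 100 allelic reads in each wild-type library left 13 of the 16 and 33 of the 89.

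The RepB libraries, whose reads do not enter the wild-type ratios, gave biases of the same direction. They share the fit and its estimate of spread: without 1 RepB-/- library the wild-type calls were 63 and 22 or 66 and 22, and without either RepB+/- library 85 and 43. In RepB+/- and in RepB-/- alike, all 75 genes biased toward 129 and all 32 biased toward CAST had the same sign. In RepB+/- 62 of the 75 and 21 of the 32 were called the same way on their own, and in RepB-/- 65 and 24. None was called the other way. All 4 RepB libraries lay on the same side of 50% for 105 of the 107 genes. Over the 2097 genes the log2 ratios correlated with those of wild type at r = 0.86 in RepB+/- and 0.89 in RepB-/-, a description across genes of libraries that share one fit.

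A changed 129 to CAST ratio against wild type was called for 2 of the 2097 genes in RepB+/- (0.0954%) and 1 in RepB-/- (0.0477%). Of all 10382 genes tested, X-linked genes included, 1.91% and 2.01% were called. An unadjusted edgeR p under 0.05 was found for 28 (1.34%) and 20 (0.954%) of the 2097 genes. A gene that was not called is not thereby shown to be unchanged. For Hspa8 the 129 share was 10.5% and 16.1% in RepB+/- and 6.69% and 2.04% in wild type (difference of log2 ratios 1.61, SE 0.23, adjusted p = 2.51e-08). Rpl37rt stood at 78.7% and 83.1% in RepB+/- and at 88.1% and 90.6% in wild type (-1.001, SE 0.18, adjusted p = 0.000609). For Mir682 it was 52.0% and 80.5% in RepB-/- and 80.8% and 90.7% in wild type (-1.59, SE 0.24, adjusted p = 4.19e-07). The Mir682 call was also lost without RepB-/- replicate 1. None of the 3 was called without wild-type replicate 2 (edgeR), with DESeq2 (3 and 1 of the 2097 genes had an unadjusted p under 0.05) or without library as a block.

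**Figure D4:**
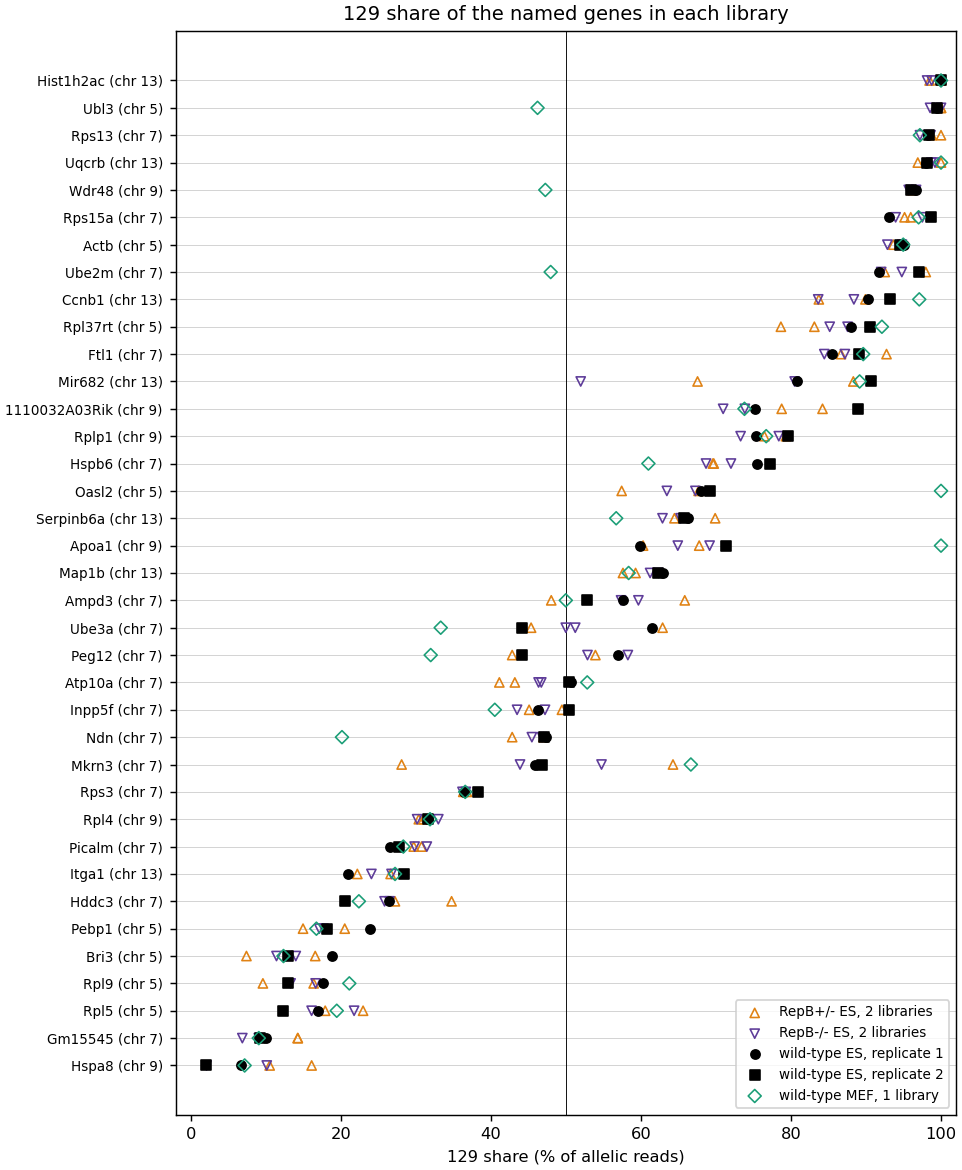
Share of 129 reads (% of allelic reads) of the 37 named genes in each RepB+/-, RepB-/- and wild-type ES library and in wild-type MEF, ordered by the wild-type log2 ratio. No minimum of reads was set in MEF, where Oasl2 had 1 129 read and 0 CAST reads. Apoa1 had 3 and 0 there, Mkrn3 2 and 1, Ampd3 3 and 3 and Ube3a 5 and 10. Ubl3, Wdr48 and Ube2m stand apart in MEF, at 46.2%, 47.3% and 48.0%, and ES libraries spread from 52.0% to 90.7% for Mir682 and from 2.04% to 16.1% for Hspa8.

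Most ES biases were also read in fibroblasts. Of the 75 genes called toward 129 in wild-type ES cells, 66 had at least 20 allelic reads in wild-type MEF, and 55 of them (83.3%) lay over 50% there, 52 with an exact interval above 50%. Of 30 measured genes called toward CAST, 29 (96.7%) lay under 50%, 28 with the interval below. Among the 1691 genes not called in ES cells 35.01% lay over and 63.1% under 50% in MEF, where the medians were 44.6% on chromosome 5, 46.1% on chromosome 7, 49.7% on chromosome 9 and 51.5% on chromosome 13. Against the median of their own chromosome, 60 of the 66 lay above and 28 of the 30 below. The MEF library has no replicate, and its intervals cover counting error only.

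A set of 6 genes called toward 129 in ES cells had a MEF interval below 50%: Sdk1, Trim68, Parm1, Anxa3, Fbxw17 and Evc. They are 9.09% of the 66 measured in MEF, against 26.5% with such an interval among the 1691 genes not called. The intervals of Trim68, Parm1, Anxa3 and Evc held the MEF median of their own chromosome, and those of Sdk1 and Fbxw17 lay below it. Sdk1, an adhesion molecule of the immunoglobulin superfamily, was the clearest, with 160 and 108 129 reads against 51 and 45 CAST reads in wild-type ES cells and 0 against 40 in MEF. Evc, a hedgehog pathway protein of the primary cilium, had 71.5% and 70.6% in ES cells and 45.9% in MEF (43.3% to 48.6%). Trim68 stood at 81.7% and 76.0% in ES cells and at 36.9% in MEF. The ES call of each of the 6 was lost without wild-type replicate 1 or without replicate 2, with log2 ratios for Sdk1 of 1.26 and 1.65 in that order.

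Other genes gave reads of both alleles in ES cells and mostly of 1 allele in MEF; these were picked after their values were seen, and the difference was not tested. Adamts15, a secreted metalloprotease, had 962 and 652 129 reads against 936 and 637 CAST reads in ES cells (50.7% and 50.6%) and 71 against 0 in MEF (exact interval 94.9% to 100%). Myo7a, an unconventional myosin of hair cells, had 49.4% and 52.4% in ES cells and 91.0% in MEF. Ucp2, a mitochondrial carrier, had 58.7% and 57.6% in ES cells and 95.7% in MEF. Dkk3, a secreted protein of the Dickkopf family, was called toward CAST in ES cells, at 30.6% and 37.9% (not called without either wild-type library), and stood at 0.806% in MEF, from 4 129 reads and 492 CAST reads. Cnn1, the calponin of smooth muscle, had 36.2% and 31.5% in ES cells (log2 -0.96, edgeR adjusted p = 0.0669) and 87.1% in MEF.

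**Figure D5:**
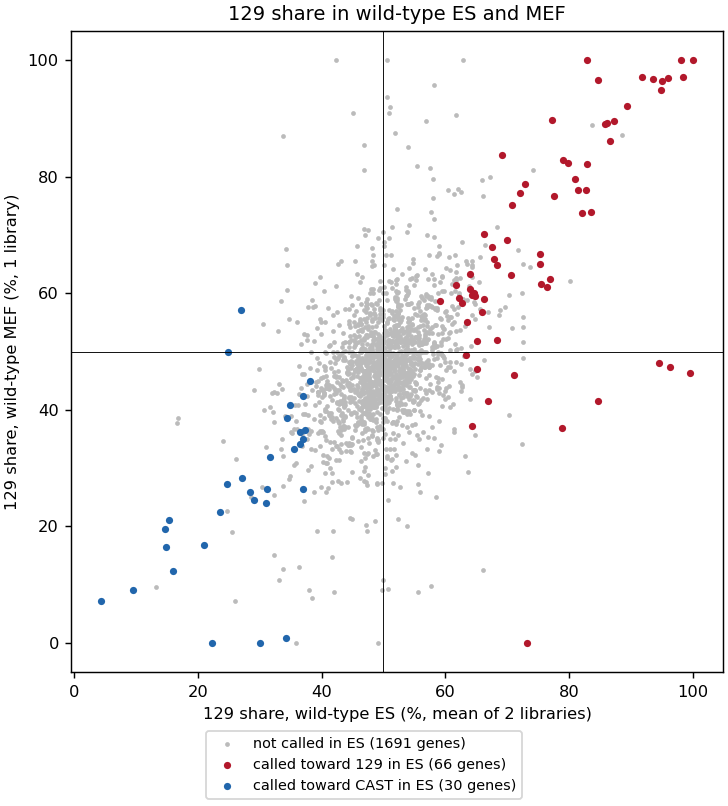
Share of 129 reads (%) in wild-type ES cells (horizontal, mean of 2 libraries) and in the wild-type MEF library (vertical) for both-allele genes with at least 20 allelic reads in MEF. Of 66 genes called toward 129 in ES cells 55 lie over 50% in MEF, and of 30 called toward CAST 29 lie under it; Ubl3, Wdr48 and Ube2m lie at the right below 50%.

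The part of a gene's reads that carried strain information varied widely. The 38 genes called with more than 4-fold bias had a median of 41.7% of their reads given to an allele, against 33.1% over all 2097, and 5 of them had under 10%. Of the 105 genes with under 10%, 8 were called (7.62%, against 5.1% of all).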

How the data were processed

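The deposited tables hold whole-number counts of reads per gene, for all reads and for reads given to the 129 and the CAST allele (headed mus and cas), with mm9 positions of 1 exon per gene. Per the submitters' processing notes, the series used TopHat, Novoalign, SAMtools, bedtools, featureCounts, cutadapt, HOMER and Juicer; roles, versions, the strand setting and the rule for multi-mapping reads are not given in the sources used here. Reads of overlapping genes, antisense partners and near-identical copies may therefore be mixed.

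Allelic counts of the 6 ES libraries (12 columns) were fitted with edgeR 4.0.16 (R 4.3.3), with library as a block and allele within genotype, over 10382 genes with at least 20 allelic reads in each wild-type library. The block is the library, which holds both alleles, and replicate numbers were not used as pairs between genotypes. The common biological coefficient of variation was 10.2%, and the fit shared 1 spread between genes of like abundance. Calls used Holm adjustment at 0.05, which holds for any subset of genes. SE is the log2 ratio over the square root of F. With 2 wild-type libraries an exact test by sign changes cannot go below 0.5. MEF intervals are exact Clopper-Pearson at 95% and cover counting error only, as does the floor of 3 counts. CPM is the count over the library total. Named genes were, among called both-allele genes with at least 200 allelic reads, the 8 highest and 8 lowest ratios and the 2 lowest p per chromosome and direction, plus the lowest p per list and direction and all measured imprinted genes; others were picked after their values were seen. Members and lists were chosen with earlier results of these data known. Scripts were tested on simulated data. Alternatives included DESeq2 1.42.0. Of 50 samples, 42 were not analysed here, and the RepB MEF library was not used. Values of some single ribosomal protein genes are not reported here, although the counts over that list include them.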

Additional observations from a re-analysis of the deposited data

Results flagged for a closer look

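The change of the 129 to CAST ratio between genotypes was called for 3 genes, each in 1 RepB genotype. Mir682, an interval on chromosome 13, changed by -1.59 (log2) in RepB-/- against wild type, and its RepB-/- libraries stood far apart, at 52.0% and 80.5% 129 reads. In RepB+/- its change was -0.86 and was not called.

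Rpl37rt on chromosome 5 changed by -1.001 in RepB+/- against wild type and by -0.41, not called, in RepB-/-. All 6 ES libraries lay between 78.7% and 90.6%.

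Hspa8 on chromosome 9 changed by 1.61 in RepB+/- against wild type and by 0.43, not called, in RepB-/-. Its 129 share was 10.5% and 16.1% in RepB+/-, 10.2% and 2.12% in RepB-/- and 6.69% and 2.04% in wild type. Replicates of wild type and of RepB-/- differed among themselves by more than 3-fold. Whether a change differed between the RepB genotypes was not tested.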

How the results depend on the processing

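None of the 107 called genes changed the sign of its ratio under the alternatives tried. The 37 named genes kept their sign and their side of the threshold in 610 recalculations and lost a call in 31. In 4 the ratio of a gene not called changed sign: without wild-type replicate 1 it was -0.34 for Ube3a, -0.34 for Peg12 and 0.021 for Inpp5f, against 0.68, 0.40 and -0.22 without replicate 2, and centred on chromosome 13 it was -0.0018 for Atp10a. The counts of calls moved more, from 75 toward 129 and 32 toward CAST. DESeq2 gave 33 and 12, a minimum of 100 allelic reads 40 and 17, and Benjamini-Hochberg adjustment 240 and 192, which takes the part of calls toward 129 from 70.1% to 55.6%. Fitting the 4 chromosomes alone gave 112 and 63. Without library as a replicate block the counts were 48 and 17; the block holds both alleles of a library and is no pairing between genotypes. Leaving out 1 library gave between 36 and 85 toward 129 and between 11 and 43 toward CAST. The genes whose ratio changed numbered between 0 and 3 in RepB+/- and between 0 and 2 in RepB-/- with 1 library left out. Under DESeq2, a minimum of 100 reads or no block they were 0 and 0, with the 4 chromosomes alone 3 and 2, and with Benjamini-Hochberg adjustment 4 and 4. The cause was not tested. The 129 share was 50.6% of reads summed over genes, and the median over genes was 51.7% with the 129-only stretches included. The limits of the both-allele stretches by fitted borders, the removal of genes with under 10% allelic reads and that of ribosomal protein genes were alternatives chosen after seeing the data; they gave 72 and 32, 67 and 32, and 67 and 26 calls. Among genes with 40 to under 200 allelic reads over both wild-type libraries, the smallest called fold was 4.04.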

Other observations

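A further 4 autosomes held stretches with both alleles. On chromosome 2 the stretches at both ends (253 and 65 genes) had median 129 shares of 50.8% and 51.2%, and of 49.8% and 50.0%, in the 2 wild-type ES libraries. On chromosome 11 the distal stretch of 358 genes had 50.1% and 51.1%. Chromosomes 8 and 6 did not lie at 50%. The first 331 measured genes of chromosome 8 (mm9 positions 3150922 to 87232576) had median 129 shares of 33.7% and 33.3% in wild-type ES cells and between 33.5% and 34.5% in the RepB libraries, against 50.0% in wild-type MEF. On chromosome 6 the first 61 genes had 35.4% and 35.2% and the last 27 had 39.2% and 39.1% in wild-type ES cells, against 53.8% and 50.7% in MEF. No cause was tested.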
